A study of Mus musculus with 16 samples.

Results

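The 45 genes described here are genes of the adult mouse liver: plasma proteins, major urinary proteins and metabolic enzymes that hepatocytes are known to make. They were drawn up as a list because many of them were lower in Klotho-treated than in control neuron arrays of these data, so their neuron values are given as a description and carry no test. Each gene was found through the RefSeq accession of its probes. The list has 57 probes of the 55681 on the array, and 45 of the 21368 gene symbols that the array's accessions gave.

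The study measured total RNA of primary C57BL/6 mouse cortical cells on one-colour oligonucleotide arrays, with 4 arrays in each of 4 groups. Neurons came from cortices of embryonic day 16, were grown for 14 days in vitro and then received phosphate-buffered saline (neuron control) or 1 nM of recombinant secreted Klotho (neuron Klotho) for 24 h. Klotho is an ageing-related transmembrane protein whose extracellular part is shed and circulates. Astrocytes received the same vehicle (astrocyte control) or the same Klotho dose (astrocyte Klotho) for 24 h, and their age is embryonic day 16 by one label and newborn by the growth protocol. No transgene or deletion is named for any group. The labels give a purity for the astrocyte cultures and none for the neuron cultures, and name no separate cultures or animals for the arrays within a group. The p-values below therefore reflect the spread between arrays alone, and that spread may be technical.

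Hepatocytes secrete most proteins of blood plasma, among them albumin, transport proteins, apolipoproteins, clotting factors and protease inhibitors. They also hold the enzymes of gluconeogenesis, of the urea cycle and of cytochrome P450 metabolism, and in mice they release major urinary proteins that carry pheromones. Several of these genes are also known in brain tissue, such as Ttr in the choroid plexus and Trf in glia, and most of the others are known for little or no expression in cortical neurons.

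Levels are log2 processed signals relative to the 75th percentile of the same array, so 0 is that percentile, and a gene with several probes is given by its brightest probe. Above background means that the scanner software called at least 0.5 of the probe's spots well above background. On neuron control arrays 66.6% ± 1.08 (SD, n = 4) of spots were above background, against 59.4% ± 1.80 (n = 4) on neuron Klotho arrays. The lowest level that counted as above background was -6.53 to -6.06 on the control arrays and -5.74 to -5.09 on the Klotho arrays, so a weak signal had to be higher to be called on a Klotho array. All 8 neuron arrays lay on 1 slide, with the control arrays in row 1 and the Klotho arrays in row 2, and same-numbered arrays shared a slide column. Treatment and slide row cannot be told apart in neurons. In astrocytes, per the scanner files, slide 2 held the control arrays and slide 3 the Klotho arrays, which confounds treatment with slide. A deposited table of processed values assigns 6 of the 8 astrocyte arrays to another sample, 4 of them to the other treatment, while its 8 neuron columns match their own arrays. All 18 neuron marker genes were above background on all 8 neuron arrays, with summed linear levels of 435 to 649 in control and 454 to 622 in Klotho.

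The promoters of a few genes are shown because letters known as a binding motif of liver factors stand in them, and because the genes themselves are described below. RefSeq promoter entries (GRCm38.p6, 250 bases before to 50 after the start) were found for 36 of the 45 genes. The C/EBP motif TTGCNNAA stood on either strand in 12 of the 36 (33.3%, against 12.2% of 27025 genes with an entry). For Alb, Fga, Ahsg and Fabp1 the sequence is printed here, ending at the base before the start and with the match in capitals.

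Alb, chr5:90460720-90460869 on the plus strand, match 94 bases before the start: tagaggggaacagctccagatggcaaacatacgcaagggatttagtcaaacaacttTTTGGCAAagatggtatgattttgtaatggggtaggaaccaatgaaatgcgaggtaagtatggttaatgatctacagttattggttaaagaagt

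Fga, chr3:83026003-83026152 on the plus strand, match 135 bases before the start: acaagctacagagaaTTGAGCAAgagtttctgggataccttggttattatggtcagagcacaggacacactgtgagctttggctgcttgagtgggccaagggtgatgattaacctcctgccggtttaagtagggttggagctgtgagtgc

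Ahsg, chr16:22891865-22892014 on the plus strand, match 32 bases before the start: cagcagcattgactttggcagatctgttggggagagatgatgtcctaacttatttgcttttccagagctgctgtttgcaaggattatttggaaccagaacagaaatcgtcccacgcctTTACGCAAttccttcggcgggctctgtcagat

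Fabp1, chr6:71199629-71199878 on the plus strand, match 174 bases before the start: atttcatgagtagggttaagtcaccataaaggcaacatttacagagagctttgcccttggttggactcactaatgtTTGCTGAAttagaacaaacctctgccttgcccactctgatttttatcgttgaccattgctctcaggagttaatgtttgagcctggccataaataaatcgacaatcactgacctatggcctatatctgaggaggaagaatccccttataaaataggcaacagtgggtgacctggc

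The FOXA motif TGTTTAC was in 3 of the 36 (8.33%, against 4.05%), the TATA motif TATAAA, searched on the plus strand, in 7 (19.4%, against 9.77%), and the HNF4 motif CAAAGTCCA in 0 (against 0.555%). Matches of these different motifs overlapped in 0 of the 36 genes. A match describes the letters only.

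Across the 45 genes, 42 were above background on all 4 neuron control arrays, Fga on 3, Apoa1 on 2 and Apob on 0. On the neuron Klotho arrays 12 were above background on all 4, 27 on 0 and the other 6 on 1 to 3. The pattern of 4 control arrays and 0 Klotho arrays held for 24 genes, and for 2.33% of all 28847 probes or genes tested in neurons. The choice of genes used this contrast, so nothing is read from that difference. The median level of the 42 genes above background on all 4 control arrays was between -3.55 and -2.16 on those arrays. On the Klotho arrays it was between -5.98 and -5.72. The arrays carry RNA of whole cultures, so fewer cells of a type and less RNA per cell cannot be told apart. Changes given with an SE, and median changes over genes unless set at a bound, are differences of measured levels, below background included.

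**Figure D1:**
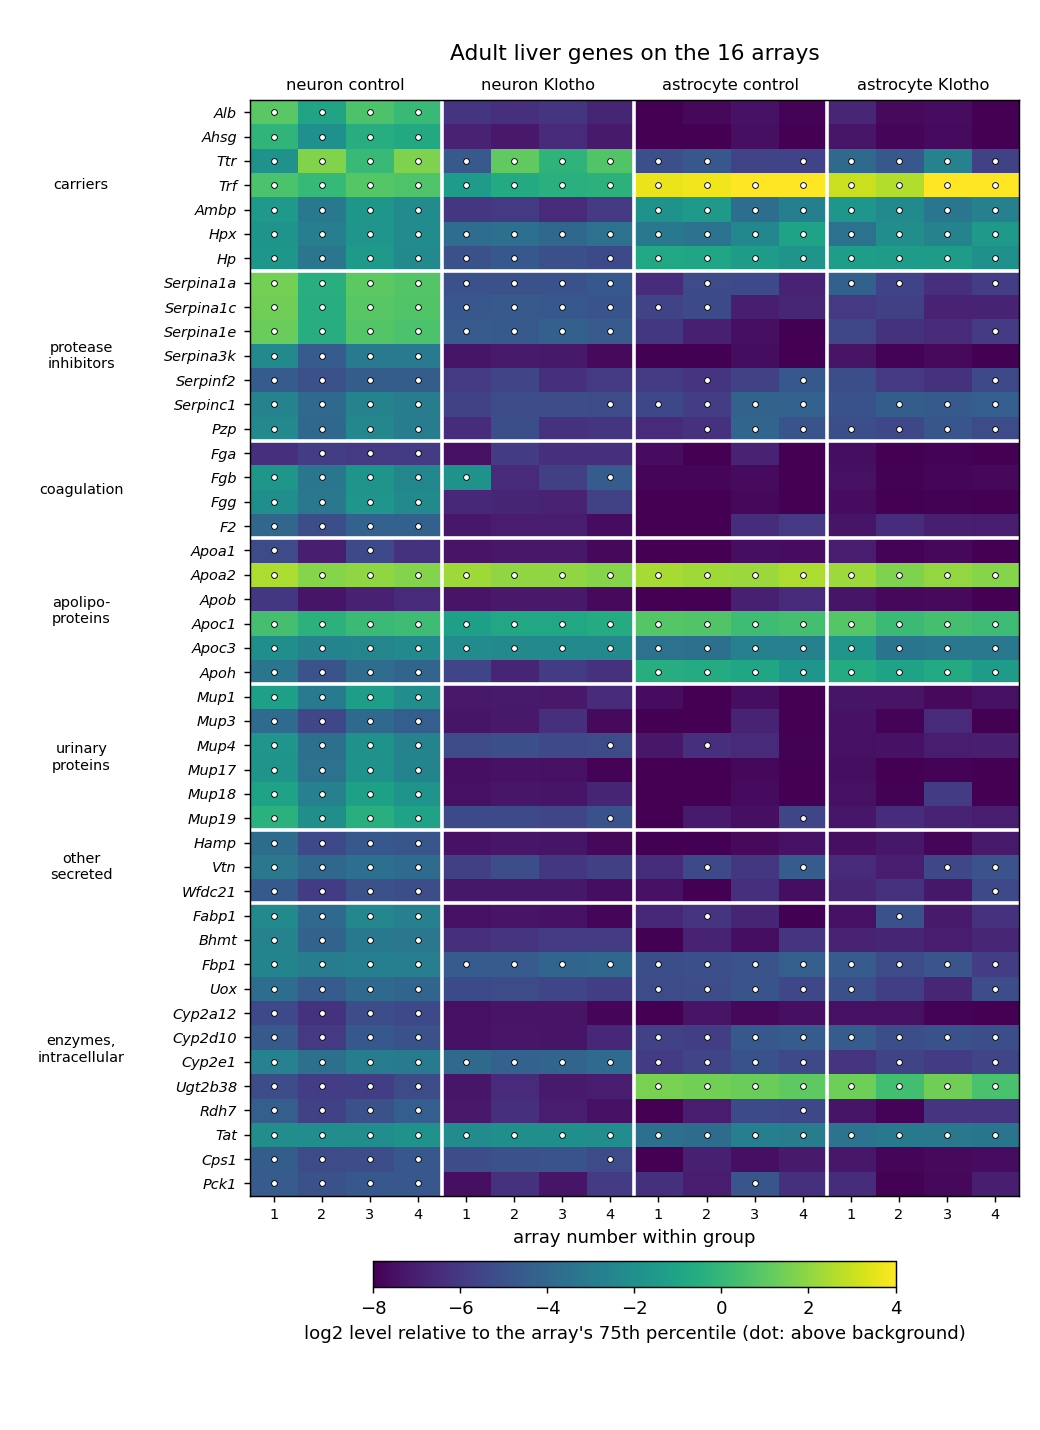
Log2 level (colour, relative to the 75th percentile of the array) of the 45 liver genes, in rows by role, on the 16 arrays, in columns by group. Dots mark arrays where the gene was above background: 42 genes have 4 dots in neuron control and 12 in neuron Klotho. Colours compare arrays within a row, not genes with each other.

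In the fit over all 28847 probes or genes (limma, adjusted p under 0.05), 24 of the 42 liver genes tested were lower in Klotho. Over all tested, 0.125% were lower and 0 higher. With the replicate number as a block the count was 14, beside 0.0763% of all tested, and 13 genes were in both counts. The calls of Hp, Serpina3k, Serpinc1, Pzp, Mup4, Hamp, Vtn, Wfdc21, Bhmt, Fbp1 and Cyp2a12 were lost with the block, and Apoh was called with the block alone. In 36 of the 42 genes each Klotho array read lower than each control array, as it did for 2.71% of all tested. The change was negative in 41 of the 42, and its median was -2.32, or -1.52 with genes off the Klotho arrays set at their bound. Over all tested the median was -0.03 and 56.2% were negative. The choice of genes fixes these directions.

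The size of the changes depended on the background correction. With normexp, 5 of the liver genes were called, beside 6 lower and 0 higher over all tested. The changes of these 5 were -3.56 for Alb, -3.02 for Ahsg, -4.09 for Serpina1a, -3.80 for Serpina1c and -3.53 for Serpina1e. The folds and bounds given below are from the processed signal, and for these 5 genes they are larger. The bounds of most other genes of the list were also larger than the normexp change, among them Mup18, Mup1, Fgg, Ambp, Fabp1 and Pzp. Hamp, Wfdc21 and Cyp2d10 were the exceptions, with a normexp change larger than their bound. The folds of Hpx, Trf, Apoc1, Fbp1 and Cyp2e1 were larger than with normexp too. The bounds therefore apply to the processed signal alone. The changes of Tat and Cps1, negative below and smaller than their SE, were positive with normexp, at 0.05 each.

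The count of 24 changed when arrays were left out. It was 19, 29, 14 and 13 without control arrays 1 to 4 and 13, 20, 17 and 18 without Klotho arrays 1 to 4. It was 9 without array 1 of both groups, an alternative chosen after seeing the data. Counts over all tested are not given for these fits, so nothing about the liver genes is read from the shifts. The 13 genes called whichever single array was left out were Alb, Ahsg, Fgg, F2, Ambp, Serpina1a, Serpina1c, Serpina1e, Mup1, Mup17, Mup18, Mup19 and Fabp1.

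For a gene above background on no Klotho array an approximate lower limit of the fold, called its bound, is given. It sets the mean control level against a mean over the Klotho arrays. On each of these the higher of the gene's own level and the lowest level that counted as above background was taken. A gene can lie above that lowest level and not be called, as Hp did on Klotho array 3, at -5.06 against -5.14. The bound is therefore no strict limit, and "at least" below refers to it. Of the 24 genes above background on 4 control and 0 Klotho arrays, 22 had a bound above 1. These bounds ran from 1.08-fold to 44.3-fold lower with a median of 3.53, and 2 genes, Cyp2a12 and Ugt2b38, had none. The bound was 2-fold or more in 14 and 10-fold or more in 4 of them (Alb, Ahsg, Mup1 and Mup18).

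Among the plasma carriers, Alb encodes serum albumin. It read 0.94, -0.99, 0.64 and 0.13 on control arrays 1 to 4 and -6.20, -6.32, -6.13 and -6.78 on Klotho arrays 1 to 4. Every control array was above background and no Klotho array was, and the groups did not overlap. The means were 0.18 ± 0.85 (SD, n = 4) and -6.36 ± 0.29, at least 44.3-fold lower in Klotho.

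Ahsg, the gene of fetuin-A, an inhibitor of mineral deposition in blood, read -0.16, -1.97, -0.51 and -0.72 in control. It read -6.84, -7.16, -6.56 and -7.11 in Klotho, all below background. The groups were apart on every array, at least 21.8-fold. Ambp, the precursor of alpha-1-microglobulin and of the inhibitor bikunin, read -1.57, -3.16, -1.64 and -2.21 in control and -6.11, -5.98, -6.56 and -5.99 in Klotho, at least 8.83-fold lower. Its Klotho arrays were again all below background.

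Hp and Hpx encode haptoglobin and hemopexin, which bind free haemoglobin and haem. Hp read -1.65, -3.28, -1.54 and -2.27 in control and -5.00, -4.71, -5.06 and -5.32 in Klotho, where arrays 1, 2 and 4 were above background. Hpx was measured on all 8 arrays and read -1.79, -2.89, -1.72 and -2.23 in control against -3.69, -3.62, -3.96 and -3.52 in Klotho, 2.91-fold lower. Neither gene's groups overlapped, and both had their lowest control value on array 2.

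The other 2 carriers differed in their pattern. Trf, the gene of the iron carrier transferrin, which glia and choroid plexus are also known to make, read 0.60, 0.03, 0.85 and 0.68 in control and -1.36, -0.68, -0.40 and -0.29 in Klotho. The groups were apart, by a change of -1.22 ± 0.26 (SE of the fit), or 2.33-fold. Ttr, the gene of the thyroid hormone carrier transthyretin, read -1.88, 1.71, 0.14 and 1.70 in control and -4.66, 1.05, -0.18 and 0.74 in Klotho. Array 1 was the lowest in both groups, the groups overlapped, and the change of -1.18 ± 1.32 was smaller than its error. Of 12 choroid plexus markers on the array, 8 were tested in neurons and 0 were called, with summed levels of 2.93 to 3.62 in control and 2.92 to 3.04 in Klotho.

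**Figure D2:**
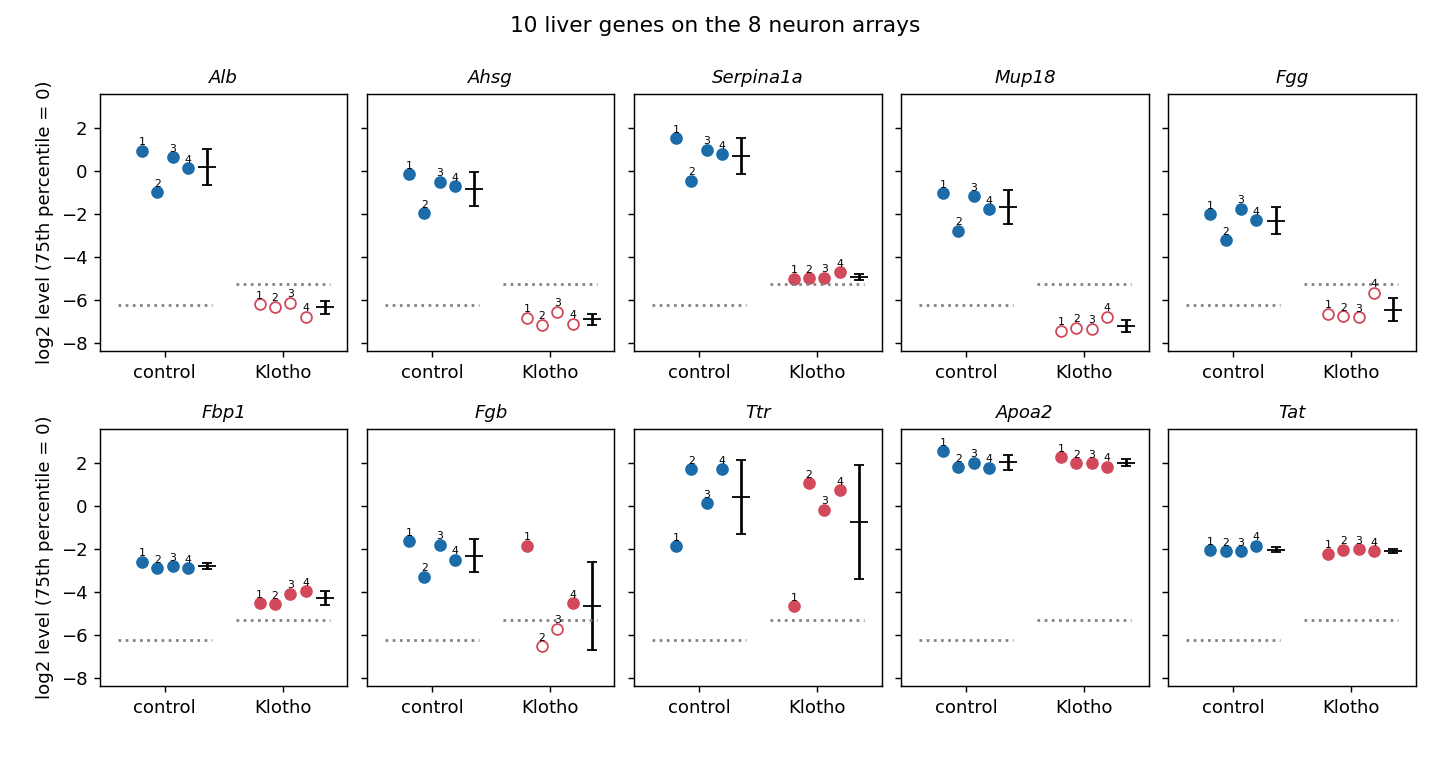
Log2 level (75th percentile of the array = 0) of 10 liver genes on the 4 control and 4 Klotho neuron arrays, numbered 1 to 4; filled points are above background, open points are not, black marks with bars are mean ± SD, and dotted lines are the group's mean lowest level above background. Alb, Ahsg, Serpina1a, Mup18, Fgg and Fbp1 are apart between the groups, Fgb and Ttr overlap on arrays with wide spread, and Apoa2 and Tat lie at like levels in both.

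The protease inhibitors were lower in Klotho by a median of -4.10 over 7 genes in measured levels. Of the 7, 3 were below background on every Klotho array, with bounds of 1.60-fold to 5.10-fold. Serpina1a, Serpina1c and Serpina1e are near-identical copies of the alpha-1-antitrypsin gene, whose product inhibits neutrophil elastase, so their probes may read each other's RNA and their values are uncertain as those of single genes. Serpina1a read 1.51, -0.46, 0.99 and 0.79 in control and -5.01, -5.00, -4.96 and -4.71 in Klotho. All 8 arrays were above background, though the Klotho values lay close to the lowest level that counted.

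The change of Serpina1a was -5.63 ± 0.36, or 49.6-fold, that of Serpina1c was -5.37 ± 0.35 (41.3-fold) and that of Serpina1e was -5.05 ± 0.34 (33.1-fold). In control all 3 copies were highest on array 1 and lowest on array 2. The second probes of Serpina1a and Serpina1e gave changes of -4.55 and -3.68.

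Serpina3k, a kallikrein-binding inhibitor, read -2.26, -4.49, -3.08 and -3.09 in control and -7.31, -7.15, -7.17 and -7.67 in Klotho, at least 4.16-fold lower. Pzp, an inhibitor of the alpha-2-macroglobulin family, read -2.37, -3.97, -2.44 and -2.98 in control and -6.49, -5.10, -6.29 and -6.14 in Klotho, at least 5.10-fold lower. No Klotho array was above background for either gene. Serpinc1, the gene of antithrombin, was above background on 1 Klotho array, with means of -3.02 ± 0.59 and -5.31 ± 0.24 (n = 4 each). Serpinf2, the gene of alpha-2-antiplasmin, was at least 1.60-fold lower, with means of -4.61 ± 0.27 and -5.93 ± 0.35.

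The fibrinogen genes Fga, Fgb and Fgg, whose 3 chains form the clot, did not share a pattern. Fgg read -2.01, -3.21, -1.76 and -2.30 in control and -6.65, -6.75, -6.82 and -5.68 in Klotho, at least 7.74-fold lower. Fgb read -1.63, -3.29, -1.81 and -2.51 in control and -1.85, -6.52, -5.71 and -4.51 in Klotho. Klotho array 1 lay within the control range for Fgb and Klotho array 4 was also above background, whereas Fgg was below background on both.

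Fga was near the background in both groups, at -6.32, -5.84, -5.96 and -5.87 in control and -7.44, -5.86, -6.40 and -6.35 in Klotho, and was not tested. F2, the gene of prothrombin, read -4.06, -5.11, -4.22 and -4.29 in control and -7.23, -7.10, -7.06 and -7.59 in Klotho, at least 1.83-fold lower. Its groups did not overlap, and every Klotho array was below background.

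The apolipoproteins, which carry lipids in plasma, were the role with the fewest calls: 0 of the 4 tested, or 1 (Apoh) with the replicate block. Apoa2 read 2.54, 1.81, 2.02 and 1.79 in control and 2.27, 1.99, 2.00 and 1.83 in Klotho, and Apoc3 read -2.04, -2.63, -2.53 and -2.31 against -2.20, -2.33, -2.25 and -2.35. Both overlapped between the groups, with changes of -0.02 ± 0.18 and 0.09 ± 0.14. Each has a dimmer second probe that gave another value, -0.69 for Apoa2 and -1.74 for Apoc3, so their probes disagree.

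Apoc1 read 0.46, -0.28, 0.20 and 0.25 in control and -1.23, -0.80, -0.83 and -0.62 in Klotho, 2.04-fold lower with no overlap. Apoh, the gene of beta-2-glycoprotein I, read -3.30, -4.92, -3.72 and -4.10 in control and -5.50, -6.78, -5.86 and -6.30 in Klotho, at least 2.42-fold lower. Apoa1 and Apob, the main structural proteins of high- and low-density lipoprotein, did not pass the filter on low values: Apoa1 was above background on control arrays 1 and 3, at -5.20 and -5.33, and Apob on none by the probe that was brighter over all 16 arrays. The other probe of Apob, at -6.38 against -6.70 on average in neuron control, was above background on 1 control array.

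The major urinary protein genes are lipocalins of 1 gene cluster with closely similar copies, so Mup1, Mup3, Mup4, Mup17, Mup18 and Mup19 are also uncertain as single genes. Their median change was -4.70 over the 6 genes in measured levels. Of the 6, 4 were below background on every Klotho array, with bounds of 1.87-fold to 12.1-fold. Mup18 read -1.03, -2.79, -1.17 and -1.77 in control and -7.45, -7.30, -7.34 and -6.78 in Klotho, at least 12.1-fold lower. Mup1 was at least 10.4-fold and Mup17 at least 7.16-fold lower. All 3 were off every Klotho array and above background on every control array.

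Mup19 read -0.32, -2.04, -0.44 and -1.10 in control and -5.31, -5.34, -5.48 and -4.98 in Klotho, and Klotho array 4 alone was above background. Mup4 read -1.73, -3.58, -1.84 and -2.63 in control and -5.20, -5.08, -5.35 and -5.27 in Klotho, also with array 4 alone above background. A second probe of Mup4 was below background on all 8 neuron arrays, so the probes of this gene disagree. Mup3 was at least 1.87-fold lower, with means of -4.39 ± 0.74 and -7.15 ± 0.55 (n = 4 each).

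Of the other secreted proteins, Hamp encodes hepcidin, the hormone that limits iron uptake, and Vtn encodes the adhesion protein vitronectin. Hamp read -3.76, -5.33, -4.69 and -4.80 in control and -7.42, -7.26, -7.31 and -7.76 in Klotho, at least 1.56-fold lower. Vtn read -3.24, -3.95, -3.61 and -3.80 in control and -5.73, -5.15, -6.06 and -5.72 in Klotho, at least 3.1-fold lower. Wfdc21, of the whey acidic protein domain family, had a bound of 1.08-fold, the smallest among the 22 genes with a bound. The probes of Vtn, Wfdc21 and Apoa1 had 8 to 10 usable spots per array. On the neuron control arrays, with 9 or 10, their spots had SDs of 0.08 to 0.14 for Vtn, 0.16 to 0.31 for Wfdc21 and 0.23 to 0.65 for Apoa1.

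The 12 enzymes and other intracellular proteins had a median change of -1.74 in measured levels. Of the 12, 8 were below background on every Klotho array. Called were 4 (Fabp1, Bhmt, Fbp1 and Cyp2a12), of which Fabp1 alone was called with the block. Fabp1, the liver fatty acid-binding protein gene, read -2.30, -3.90, -2.45 and -2.76 in control and -7.47, -7.37, -7.39 and -7.82 in Klotho, at least 5.42-fold lower. Bhmt, which returns a methyl group to homocysteine, read -2.65, -4.16, -3.13 and -3.27 in control and -6.41, -6.13, -5.91 and -5.89 in Klotho, at least 3.96-fold lower. Both were off every Klotho array. The other 2 probes of Bhmt gave changes of -1.05 and -4.15.

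Fbp1, the gluconeogenic fructose-1,6-bisphosphatase, was above background on all 8 arrays and differed in how even it was. It read -2.59, -2.89, -2.80 and -2.89 in control and -4.52, -4.57, -4.08 and -3.97 in Klotho. The change was -1.49 ± 0.16, or 2.81-fold, and the control SD was 0.14. Pck1, the gene of the gluconeogenic enzyme phosphoenolpyruvate carboxykinase, read -4.53, -5.02, -4.68 and -4.75 in control and -7.50, -6.30, -7.32 and -5.93 in Klotho, at least 1.46-fold lower.

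Of the cytochrome P450 genes, Cyp2e1, which oxidises ethanol and other small molecules, read -2.67, -3.56, -2.93 and -3.01 in control and -3.86, -4.23, -4.09 and -3.83 in Klotho, 1.94-fold lower and above background on all 8 arrays. Its dimmer second probe was above background on the 4 control arrays and on no Klotho array, with a change of -1.61. Cyp2d10 was at least 1.15-fold lower, and Cyp2a12 lay too near the background for a bound. Uox, the gene of urate oxidase, was at least 2.34-fold lower by its brighter probe, while its other probe was below background on all neuron arrays. Rdh7, a retinol dehydrogenase gene, was at least 1.35-fold lower.

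The amino acid enzymes Tat and Cps1 overlapped between the groups. Tat, tyrosine aminotransferase, read -2.06, -2.11, -2.11 and -1.84 in control and -2.22, -2.03, -2.02 and -2.11 in Klotho, a change of -0.06 ± 0.11. Cps1, which makes carbamoyl phosphate for the urea cycle, read -4.45, -5.26, -5.14 and -4.76 in control and -5.14, -5.02, -4.88 and -5.22 in Klotho, where array 4 alone was above background. Its change was -0.17 ± 0.19. Among the 42 tested genes, only Apoa2, Apoc3, Tat, Cps1 and Ttr had a change smaller than its SE.

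On the 12 genes above background on all 8 arrays, where no bound is needed, the change ran from -5.63 to 0.09 with a median of -1.20. It was below -1 in 8 of them. Of 25249 probes or genes above background on all 8 arrays, 14 were below -1 (0.0554%).

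Within the neuron control group the liver genes were high and low on the same arrays. Control array 1 held the highest and control array 2 the lowest of the 4 values in 33 of the 42 tested genes (78.6%), against 16.1% of all tested. Among the 24 called genes the count was 21. Array 1 exceeded array 2 by a median of 1.32, against 0.04 over all tested (5th to 95th percentile -1.05 to 0.96), and by more than 1 in 27 of the 42, against 4.17% of all. The genes were chosen with the means of these arrays in view and all of them share the same libraries, so this is a description with no test.

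The size of that spread varied among the genes. Serpina3k differed by 2.23 between control arrays 1 and 2, Serpina1a by 1.97, Alb by 1.93, Mup4 by 1.85, Mup1 by 1.84 and Ahsg by 1.80. Tat differed by 0.05, Fbp1 by 0.31 and Pck1 by 0.48. Ttr ran the other way, with control array 1 below array 2 by -3.59.

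**Figure D3:**
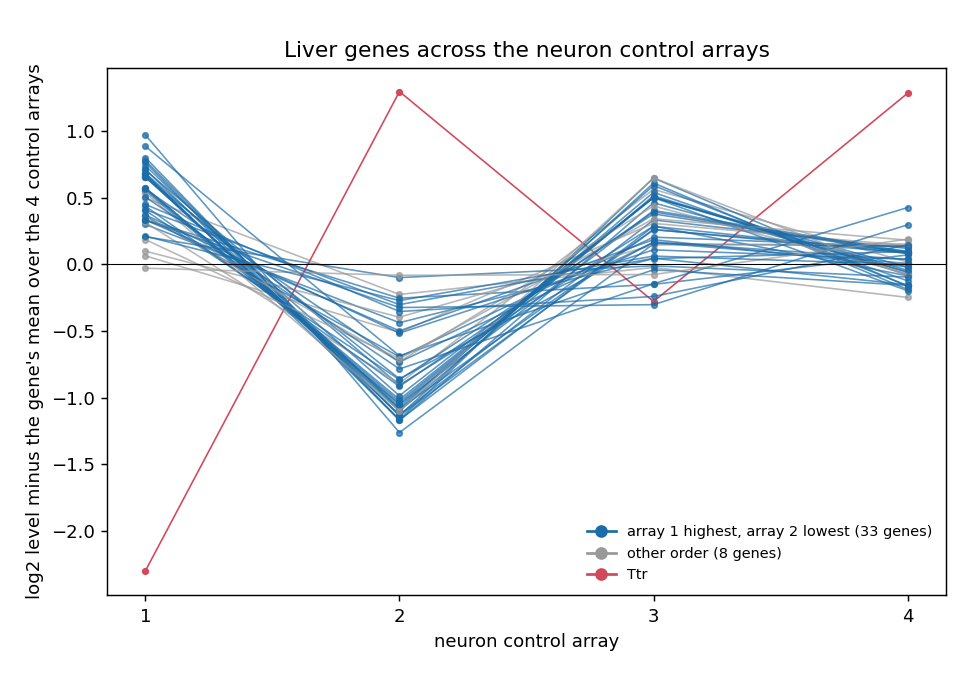
Level of each of the 42 tested liver genes on neuron control arrays 1 to 4 minus its mean over them (log2); each line joins the values of 1 gene and implies no order of arrays. Blue lines are the 33 genes highest on array 1 and lowest on array 2, and Ttr (red) is lowest on array 1.

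Genes of the liver outside the 45 were counted from 4 lists of other plasma proteins, other liver enzymes, liver transport proteins and liver transcription factors. Of 168 on the array, 93 were tested in neurons, 5 were lower (5.38%, against 0.125% of all tested) and 0 higher (limma, adjusted p under 0.05). All 5 entered the fit through the control arrays alone (Itih4 was above background on 2 Klotho arrays and the others on 0), so the share is a description and supports nothing. Among genes above background on all 8 arrays the count was 0, and with normexp background correction it was also 0. Their median change was -0.21 and 63 of the 93 were negative. Leaving out 1 array gave 2, 12, 1 and 1 calls without control arrays 1 to 4 and 1, 2, 2 and 3 without Klotho arrays 1 to 4, so each omission moved the count by more than 1.5 times. Counts over all tested are not given beside these.

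The 5 were Kng1, Itih4, Mbl2, Cyp2f2 and Adh1. Kng1, the kininogen gene, read -1.77, -3.34, -1.92 and -2.31 in control and -5.17, -5.81, -5.31 and -6.55 in Klotho, at least 7.73-fold lower (limma adjusted p = 0.0207). Itih4, of the inter-alpha-trypsin inhibitor family, had means of -2.99 ± 0.54 and -5.07 ± 0.28 (n = 4 each, limma adjusted p = 0.0309). Mbl2, a mannose-binding lectin gene, was at least 1.73-fold lower (limma adjusted p = 0.0101), the P450 gene Cyp2f2 at least 1.94-fold (0.0045) and the alcohol dehydrogenase gene Adh1 at least 1.45-fold (0.029). With the replicate block 4 genes of these lists were called: Kng1, Itih4 and Cyp2f2, and the deacetylase gene Aadac with a change of -1.07, named after its value was seen. Mbl2 and Adh1 were not called with the block. The 5 were highest on control array 1 and lowest on control array 2.

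By list, 3 of 28 other plasma proteins, 2 of 42 other enzymes, 0 of 14 transport genes and 0 of 9 transcription factor genes were called. Foxa2, the gene of a factor that drives hepatocyte expression, and Afp, the fetal liver counterpart of albumin, were above background on 0 of the 8 neuron arrays. Of the 6 fetal liver genes on the array, Afp among them, 2 were above background on no neuron array. The other 4 were above background on all control arrays and 3 of them on all Klotho arrays, with 0 called. Hnf4a was above background on 4 control arrays and 1 Klotho array, with a change of -0.09 ± 0.34, and Cebpa on all 8 with 0.03 ± 0.15. Neither change exceeded its error.

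Markers of other liver cells gave 0 calls by limma: of the Kupffer cell list 5 of 10 genes on the array were tested, of liver endothelium 7 of 12, of stellate cells 6 of 9 and of cholangiocytes 3 of 8. Kupffer cell markers summed to 0.365 to 0.505 in neuron control and 0.319 to 0.489 in neuron Klotho, with 4 of the 10 on no neuron array, and the summed levels of the other 3 lists also overlapped between the groups. The lists for kidney, intestine, pancreas, skeletal muscle, erythroid cells, astrocytes, microglia, oligodendrocytes and meningeal fibroblasts gave 0 calls as well. Over these 15 lists, with the neuron and choroid plexus markers, 4 of 119 tested genes (3.36%) had an unadjusted p under 0.05, against 4.12% of all tested. Astrocyte markers summed to 225 to 303 in control and 177 to 265 in Klotho, and 12 of the 13 tested were negative. Microglia markers summed to 37.1 to 40.8 in control and 42.8 to 46.6 in Klotho, so their ranges did not overlap. Most of that sum was Itgam, at 5.07 ± 0.09 in control and 5.27 ± 0.10 in Klotho (log2). Of the 11 microglia markers tested, 4 were negative and 0 had an unadjusted limma p under 0.05. The part of other cells in the liver gene values was not tested.

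**Figure D4:**
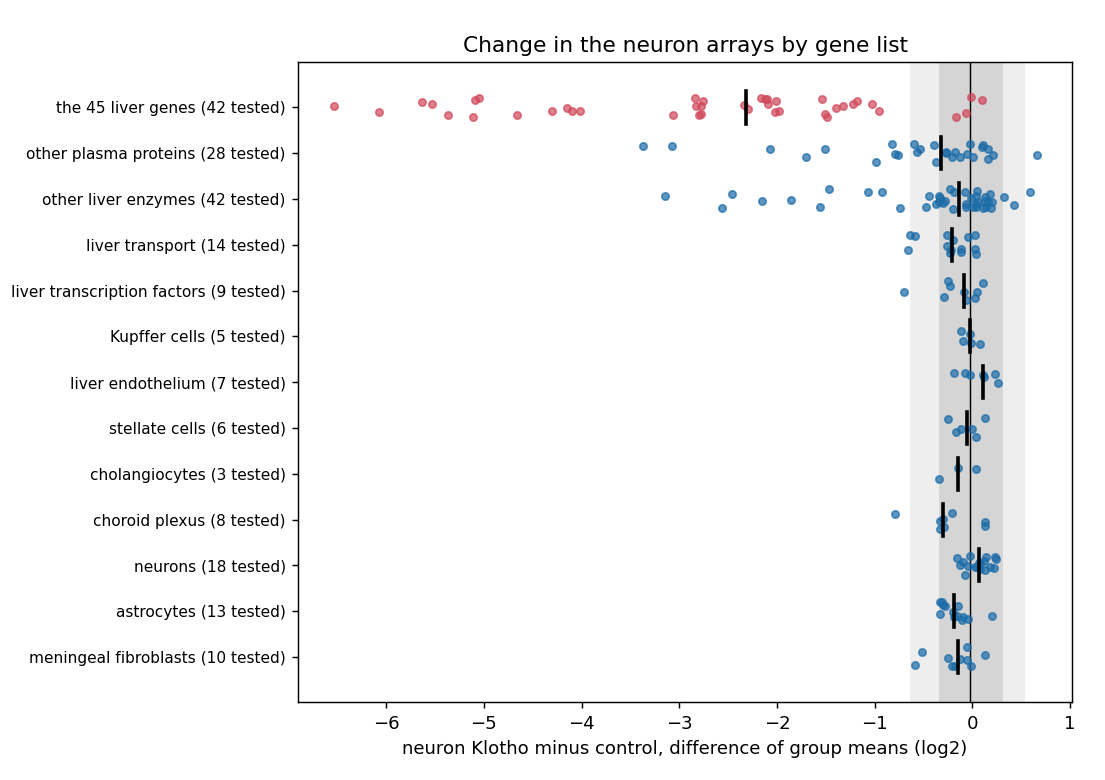
Difference between neuron Klotho and neuron control means (log2) for each tested gene of the 45 and of 12 other lists; black bars are medians, the shaded bands run from percentile 1 to 99 and from 5 to 95 of all tested, and the line is their median. The 45 were chosen on this difference; the other plasma proteins and enzymes reach to -3.37 and -3.14, and the remaining lists stay between -0.79 and 0.26.

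Of the 36 probes or genes called in neurons, 24 were of the 45, and the other 12 were 5 genes of the liver lists, 4 further named genes and 3 probes without a symbol. The 4 were Mup5, Mup20, Mug1 and Mug2, again urinary proteins and the murinoglobulins, plasma protease inhibitors of the alpha-2-macroglobulin family. Mup20 was at least 3.38-fold lower (limma adjusted p = 0.008) and Mug1 at least 2.77-fold lower (limma adjusted p = 0.022). All 12 entered the fit through the control arrays alone, so their calls are a description and support nothing. The 4 named genes were above background on 0 Klotho arrays. The urinary protein genes are closely similar copies, so Mup5 and Mup20 are also uncertain as single genes. With the replicate block Mup5 and Mup20 were still called and Mug1 and Mug2 were not. The probes without a symbol were A_55_P2035029, A_55_P2046709 and A_55_P2144090. The control values of 11 of the 12 were highest on array 1 and lowest on array 2.

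The astrocyte arrays did not enter the choice of genes, and there the comparison of Klotho with control is a test. By the scanner files it tests treatment and slide together, and the deposited table of processed values assigns 4 arrays to the other treatment. Of the 45 genes, 15 were above background on all 4 astrocyte control arrays and 19 on none. Of the 17 tested, 0 were called by limma (0 of 27145 over all tested, smallest adjusted p = 0.9999), and 0 had an unadjusted p under 0.05, against 3.56% of all. Their changes ran from -0.51 to 1.01 around a median of -0.05 (all tested, -0.01), with 10 negative and 7 positive and SEs of 0.21 to 0.58. In none of the 17 did the 4 Klotho values lie apart from the 4 control values. No share over all tested is given beside that count, so nothing is read from it. These astrocyte values do not show that the genes were equal, since the SEs leave room for changes in either direction.

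Apoa2 had the smallest unadjusted limma p, 0.0805 (adjusted p = 0.9999), with a change of -0.41 ± 0.21 and control values of 2.43, 2.29, 2.20 and 2.52 against 2.24, 1.69, 2.06 and 1.83. Ttr read -5.07, -4.77, -5.56 and -5.58 in astrocyte control and -3.91, -4.67, -2.67 and -5.67 in astrocyte Klotho, a change of 1.01 ± 0.58. Both pairs of groups overlapped. Ugt2b38, Uox and Trf followed, with changes of -0.41, -0.51 and -0.46.

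Some liver genes were well above background in astrocytes. Trf read 3.64, 3.73, 4.16 and 4.12 on the control arrays and Ugt2b38, a gene of the glucuronosyltransferase family, 1.57, 1.45, 1.30 and 1.02, while in neuron control Ugt2b38 read -5.82 to -5.16. Apoh read -0.53, -0.60, -0.91 and -1.69 in astrocyte control. Alb, Ahsg, Fgb, Fgg, F2, Mup1, Mup17 and Mup18 were below background on all 8 astrocyte arrays.

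The same 17 genes had a median change of -1.49 in neurons. The difference between the cell types was not tested, since the neuron values chose the genes. With the assignment of the deposited table of processed values and the slide as a block, 16 liver genes were tested in astrocytes. By limma 0 of them were called, 0 had an unadjusted p under 0.05, and the median change was -0.18. Over all tested in that fit, 0 were called, 690 had an unadjusted p under 0.05, and the median change was -0.04.

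**Figure D5:**
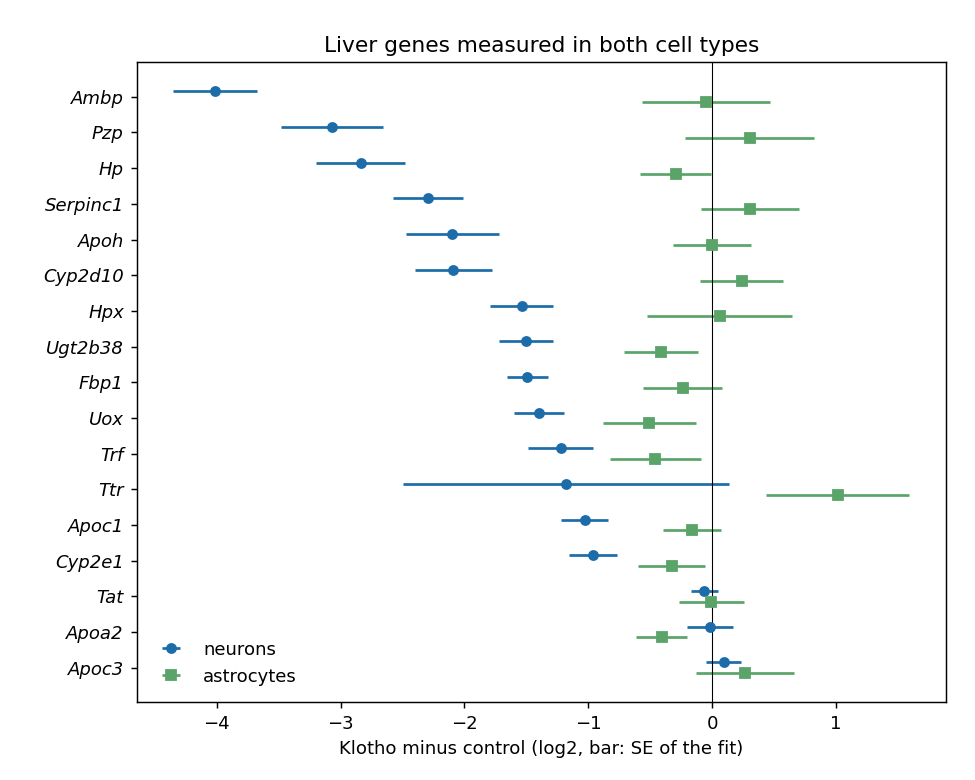
Klotho minus control (log2, points with the SE of the limma fit) in neurons (blue) and astrocytes (green) for the 17 liver genes tested in both, ordered by the neuron change and taken from measured levels, also where Klotho arrays were below background. The astrocyte points lie between -0.51 and 1.01, and the neuron points, on which the genes were chosen, between -4.01 and 0.09.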

How the data were processed

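Total RNA of the 16 samples was labelled with Cy3 and hybridised to one-colour arrays, per the labels' protocols. Scans of array design 028005 were read by Feature Extraction 12.0.3.1 (Agilent; protocol GE1_1200_Jun14), per the file headers. The deposited files hold linear intensity values and 0 or 1 flags per spot, and the processed intensity is background-subtracted within the array, per the file headers. The deposited value table holds a score, the z-score of log2 intensity within each array to within 0.005, as checked against the scanner files.

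Each array has 62976 spots, 3671 of them controls, and 55681 probes. None of the spots was saturated. Levels are log2 of the processed intensity minus the array's own 75th percentile, spots of a probe were averaged, and outlier spots were dropped. Of 29786 probes with a RefSeq accession, 28331 received a symbol from a GRCm38.p6 gene table. The brightest probe stood for a symbol, and probes without a symbol stood alone, which gave 48718 units. Units entered a fit if 1 or both compared groups had them above background on every array, and were fitted with limma 3.58.1 (lmFit, eBayes, R 4.3.3) and p-values adjusted by Benjamini-Hochberg with a threshold of 0.05. The fit was tested on simulated data. Python 3.11.15, pandas 2.3.3, numpy 2.4.6 and matplotlib 3.10.9 made tables and figures.

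The genes, gene lists and naming rules were chosen with earlier results of these data known. All 45 genes may be named, of other lists up to 4 with the smallest p and up to 3 with the highest control level, any other unit called in neurons, and in astrocytes up to 5 of the 45 with the smallest p. The promoters shown were chosen after the motif search, and 1 of the motifs searched is not reported here. Deviations of same-numbered arrays of the groups compared correlated with r of 0.206 to 0.799 in neurons and 0.168 to 0.763 in astrocytes, and differently numbered arrays with -0.725 to 0.539 and -0.745 to 0.712. Some arrays correlated better with another number than with their own. Since every same-numbered pair was above 0.1, the numbers from the titles were taken as pairs and a replicate block fit was added. Alternatives covered background correction (normexp, offset 50, on median signals, since no mean signal column is held), scaling, filter, probe choice, the value table, the block and each array left out. Precision is limited by the number of arrays.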

Additional observations from a re-analysis of the deposited data

Results flagged for a closer look

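In 83 groups of 4 arrays on which a liver gene was above background throughout, 6 had 1 array far from the other 3 for the size of the group's range, and chance gives about 1 in 20. The 6 of 83 lie near that share, and groups on the same arrays are not independent, so nothing is read from the count. In astrocyte Klotho, Apoc3 read -1.76 on array 1 against -3.36 to -3.17 on the others, and Hp read -1.98 on array 4 against -1.42 to -1.32. In neuron Klotho, Serpina1a read -4.71 on array 4 against -5.01 to -4.96, and Serpina1e read -4.33 on array 3 against -4.59 to -4.55. In neuron control, Serpinf2 read -5.00 on array 2 against -4.51 to -4.46, and Cyp2a12 read -6.24 on array 2 against -5.35 to -5.19.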

How the results depend on the processing

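The count of 24 liver genes called lower in neurons was 5 with normexp background correction, 37 of 45 without the background filter, 3 of 12 with units above background on all 8 arrays, 14 with the replicate block (the pairing by array number), and 9 without array 1 of both groups, an alternative chosen after seeing the data. Over all tested, 36 units were called lower, against 6 with normexp, 237 without the filter, 3 on all 8 arrays and 22 with the block. Leaving out 1 array gave 13 to 29 liver genes. For the fits with arrays left out no count over all tested is given. The median change of -2.32 was -0.96 with normexp, -1.20 above background on all 8 arrays and -0.61 in the value table, whose scale is SD units, and -2.62 to -2.14 with 1 array left out. The 5 calls among other liver genes were 0 with normexp, 22 lower and 22 higher without the filter, 0 on all 8 arrays, 8 in the value table and 1 to 12 with 1 array left out. Without the filter 6910 units were higher and 237 lower, beside a mean lowest level above background of -6.26 on control and -5.29 on Klotho arrays. The stricter filter tests fewer genes, and the cause of the other shifts was not tested. The other settings, including array median and quantile scaling and the mean of all probes, moved none of these counts or medians beyond their limits. In astrocytes the count of 0 was the same in every setting, and the median change with 1 array left out was -0.19 to 0.01. The number of liver genes above background on all neuron control arrays was 42 to 43 with 1 array left out. Of 684 alternatives for single liver genes in neurons, 0 reversed a called direction, and 103 lost and 35 gained a call. Scaling to spike-in probes was not run, since few of the 350 spike-in spots per array were above background. They numbered 35 to 49 on neuron control and 9 to 21 on neuron Klotho arrays, so these ranges did not overlap. On astrocyte arrays they numbered 39 to 54 in control and 17 to 49 in Klotho. The cause of these differences was not tested. Array signal over background limits the genes with a bound.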
